A study of Mus musculus with 9 samples.

Results

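Dpp4, Pi16, Cd55, Anxa3, Icam1, F3 and Clec11a are 7 genes by which subsets of fibroblasts and preadipocytes are told apart in mouse tissue, and they were taken by name from a table of 26214 genes. Dpp4, Pi16 and Cd55 stand for interstitial progenitors, Icam1 for committed preadipocytes, and F3 and Clec11a for regulatory preadipocytes, while Anxa3 was placed with the interstitial progenitor genes. All 7 passed the filter on low values, a mean of at least 10 over the libraries compared. RNA was sequenced from sorted cells of C57Bl/6 J mice (males aged 8 to 12 weeks in the study's methods), 1 day after an injection into the right quadriceps. Adipose stromal cells (ASCs, 3 libraries) came from the subcutaneous adipose tissue (ScAT) of mice given NaCl, fibro-adipogenic progenitors (FAPs, 2 libraries) from the quadriceps of mice given NaCl, and injured FAPs (3 libraries) from the quadriceps of mice given glycerol, which destroys myofibers. Both cell types were sorted with magnetic beads as CD45-/CD31- cells positive for Sca-1, so each library is a mixture of the subsets that pass this gate. A single library of CD31+CD45+ cells of glycerol-injected quadriceps was made once, without a replicate, and was therefore not tested. The study's methods describe triplicates made from a pool of cells of 3 animals, so the p-values below measure the spread between such libraries, which may be technical.

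Stromal cells of mouse subcutaneous fat are described as a hierarchy. DPP4+ interstitial progenitors, found in the reticular interstitium around the fat pad, can give rise to ICAM1+ committed preadipocytes and to CD142+ cells, and CD142 is the protein of F3. The CD142+ regulatory cells are known for restraining the adipogenesis of their neighbours in some assays, and Clec11a marks the same cells. Fibroblasts that carry Pi16 and Dpp4 recur in many tissues, muscle included, are counted among universal fibroblasts and lie in fascia and adventitia. Parenchymal fibroblasts carry Col15a1.

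The values are reads per gene divided by a size factor for the library, called normalized values here. Dividing them by the worth of 1 read returned whole reads for 100% of values (tolerance 0.1 read) in each of the 9 libraries. The libraries held 27349184 to 27481573 reads on genes in ASCs (median 27402102), 24052508 and 24164447 in FAPs, 26698572 to 27028114 in injured FAPs (median 26968235) and 13091077 in CD31+CD45+ cells. At this depth 3 reads are worth a normalized value of 2.29 to 4.71, far below each member's values.

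The sorted cells carried fibroblast genes throughout. All 12 pan-fibroblast genes listed were above 0 in every library, with Col1a1, Gsn or Col3a1 the most abundant, and their normalized values summed to at least 4525991 (at most 5306815) in ASCs, 2812696 and 2923177 in FAPs, between 995968 and 1072054 in injured FAPs and 87597 in CD31+CD45+ cells. Ly6a, the gene of Sca-1, stood at 46513, 49855 and 36777 in ASCs, 16542 and 10823 in FAPs and 24309, 21308 and 24855 in injured FAPs (named after its values were seen, because it is the sorting marker). Endothelial genes (12 listed) summed to 9197 to 10855 in ASCs, to 17812 and 16287 in FAPs and, after injury, to between 9797 and 11895, against 393076 in the CD31+CD45+ library, with Eng the most abundant in FAPs and injured FAPs and Tek in ASCs. Neither FAP library had a value above 0 for Cldn5, Emcn or Vwf. Counted over the table, 28 genes were at 0 in both FAP libraries and at 10 or more in each of the other 6, against 5 genes at 0 in the 3 ASC libraries and at 10 or more in the other 5. Whether these zeros are missing transcripts or come from the handling of the reads cannot be told apart here, and changes of such genes rest on them. Leukocyte genes (14 listed) summed to 421 to 523 in ASCs, 292 and 546 in FAPs, 639, 2768 and 552 in the 3 injured FAP libraries and 30936 in CD31+CD45+ cells. The second injured FAP library thus held more of these transcripts than the other 2, with Lyz2 at 725 against 142 and 109.

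Muscle-derived libraries also held transcripts of other stromal cells. The 9 smooth muscle and pericyte genes summed to between 3459 and 5400 in ASCs, to 24377 and 21409 in FAPs and to between 10101 and 10631 in injured FAPs, with Rgs5 or Acta2 leading in FAPs. The 7 synovial and tendon sheath genes gave 7900 to 23832 in ASCs, 238316 and 199131 for the FAP libraries and at least 355691 (at most 521489) after injury, with Thbs4 leading in FAPs and Prg4 in injured FAPs. Prg4 carried the higher sum after injury (log2 fold change 1.99). In injured FAPs against FAPs 4 of the 7 were called lower, where 27.7% of all tested genes were, with a median of −1.39. Adipocyte genes (7 listed) summed to 229 at most. Muscle fibre and satellite cell genes (9 listed) summed to 941.7 at most and Schwann cell genes (5 listed) to 1824 at most in the stromal libraries. Mesothelial genes (11 listed) summed to 1212 in the first ASC library, led by Krt8, against 69.1 and 398 in the other ASC libraries and 88.5 at most in FAPs and injured FAPs. That first library also had the highest Dpp4, Pi16, Icam1, F3 and Clec11a of the ASCs. The part of these other cells in the results below was not tested.

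Dpp4 encodes a membrane-bound dipeptidyl peptidase. Its normalized values were 16547, 14086 and 15958 in ASCs, 1749.6 and 1761 in FAPs, 967, 749 and 766 in injured FAPs and 62.8 in CD31+CD45+ cells. The groups did not overlap, and ASCs were the highest and injured FAPs the lowest of the 3 stromal groups. How many of all genes keep the groups apart was not counted, for this gene and those below, so a lack of overlap only describes each gene. In bulk libraries, fewer cells of a type and less RNA per cell cannot be told apart. The gene lies on chr2:62330073-62412231 (minus strand, GRCm38).

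Pi16 encodes a secreted or anchored peptidase inhibitor of the CAP family (chr17:29317680-29330593, plus strand). It stood at 124419, 75929 and 108050.1 in ASCs, 16689 and 19305 in FAPs, 3313, 2971 and 2854 in injured FAPs and 329.6 in CD31+CD45+ cells. The order of the groups was that of Dpp4, again with no overlap.

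Cd55 encodes decay accelerating factor, a regulator that protects cells from complement (chr1:130439027-130462744, minus strand). Its values were 10427, 7518 and 10762 in ASCs, 2681 and 2663 in FAPs, 778, 638 and 757 in injured FAPs and 756 in the CD31+CD45+ library. The groups of stromal cells were separate here too, and the CD31+CD45+ library was within the range of injured FAPs. Cd55b, the adjacent paralogue with a closely similar sequence, ranged from 0 to 18.4, so reads assigned to that copy were few.

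Anxa3, an annexin that binds phospholipids in the presence of calcium (chr5:96793339-96845966, plus strand), did not follow the other 3 interstitial progenitor genes. It stood at 8222, 7671 and 9542 in ASCs, 1364 and 1419 in FAPs and 2591, 2431 and 2573 in injured FAPs. Injured FAPs were between FAPs and ASCs, with no overlap between the groups.

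Icam1 encodes an adhesion molecule that leukocytes bind through integrins (chr9:21015985-21028817, plus strand). Its values were 15125, 10908 and 11311 in ASCs, 2948 and 2541 in FAPs and 5079, 4342 and 4666 in injured FAPs. This is the order of Anxa3, so the marker of committed preadipocytes and the annexin were both lowest in non-injured FAPs.

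F3 encodes tissue factor, the receptor that starts coagulation with factor VII (chr3:121723537-121735048, plus strand). It was at 6045, 3738 and 3175 in ASCs, 7081 and 5838 in FAPs and 2837, 2661 and 2783 in injured FAPs. The ASC and FAP ranges overlapped, and injured FAPs lay below both.

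Clec11a, a secreted lectin-type growth factor also called osteolectin (chr7:44302687-44306902, minus strand), was at 4480, 2636 and 3167 in ASCs, 4094 and 4785 in FAPs and 1421, 1212 and 1267 in injured FAPs. As with F3, ASCs and FAPs overlapped and the injured FAP libraries were the lowest.

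**Figure D1:**
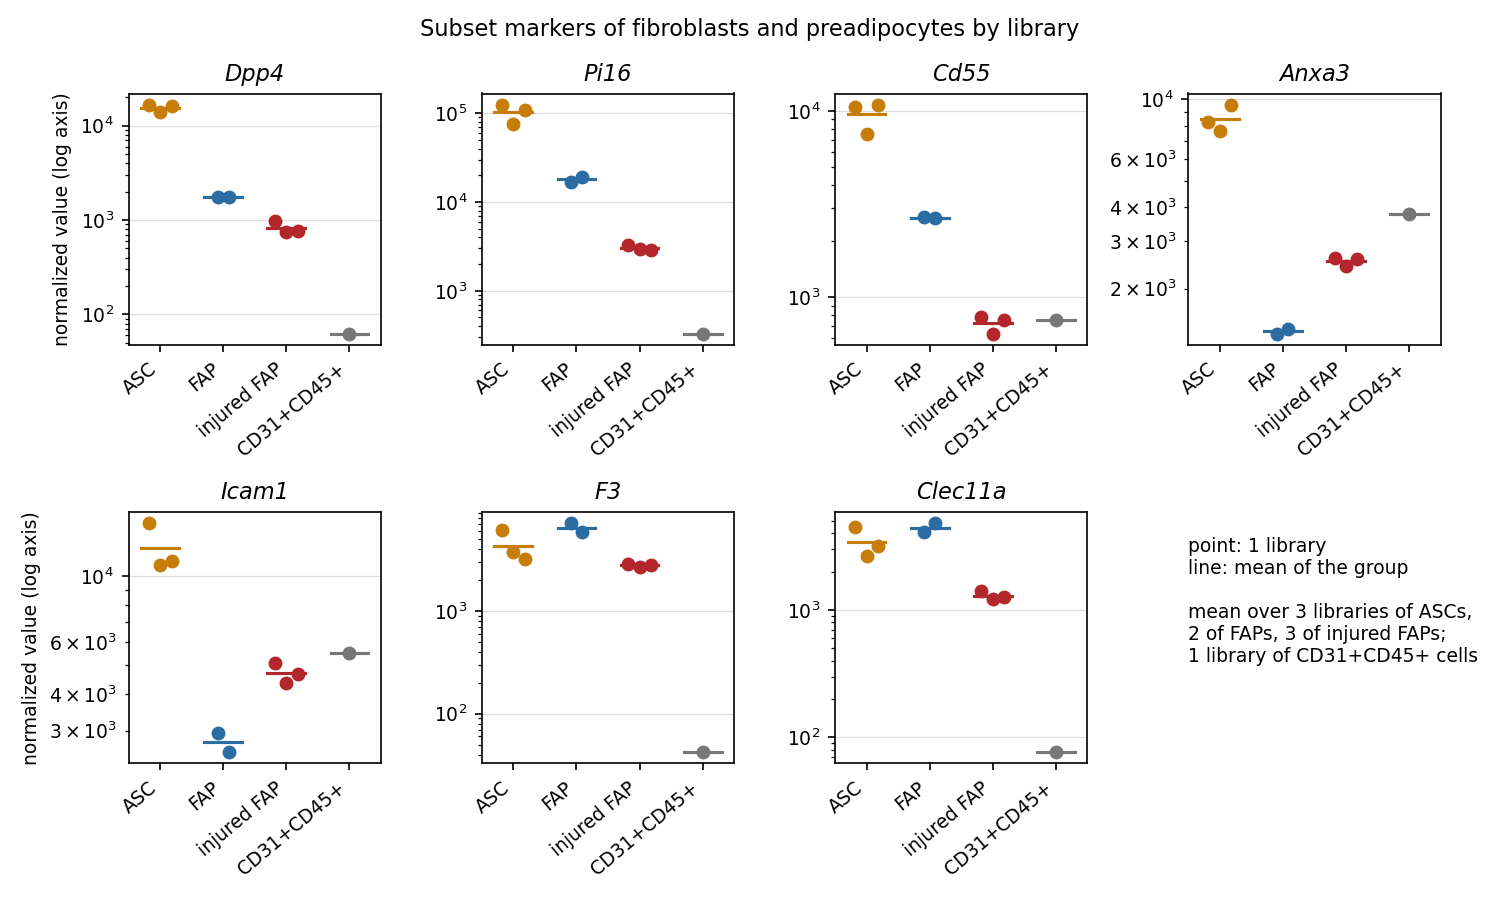
Normalized value (log axis) of each of the 7 genes in each library, with 1 point per library and a line at the mean of the group. Dpp4, Pi16 and Cd55 descend from ASCs through FAPs to injured FAPs, Anxa3 and Icam1 are lowest in FAPs, and F3 and Clec11a overlap between ASCs and FAPs.

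Levels of different genes were compared per kilobase of the longest annotated coding transcript, which was 5268 bases for Dpp4, 3994 for Pi16, 2533 for Cd55, 1595 for Anxa3, 2535 for Icam1, 1872 for F3 and 2978 for Clec11a. All annotated exons together hold 6319 bases for Dpp4, 6364 for Pi16, 4853 for Cd55, 3643 for Anxa3 and 4360 for Icam1. The order of the genes can therefore change with the length chosen, which overlap between libraries does not measure. In ASCs, Pi16 was the most abundant of the 7, at 25738 ± 6176 per kilobase (SD, n = 3), with no library overlapping the next gene. Anxa3 (5316 ± 603 per kilobase) and Icam1 (4910 ± 918 per kilobase) overlapped each other, as did Cd55 (3778 ± 704 per kilobase) and Dpp4 (2948 ± 244 per kilobase), and Dpp4 overlapped F3 (2307 ± 813 per kilobase). Clec11a was the lowest at 1151 ± 319 per kilobase. ASCs thus carried the interstitial markers and Icam1 above both regulatory markers, except that F3 overlapped Dpp4 and Cd55.

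In non-injured FAPs, Pi16 was again first at 4506 ± 463 per kilobase (SD, n = 2), but F3 came next at 3451 ± 470, before Clec11a at 1491 ± 164. Icam1 (1083 ± 113 per kilobase) overlapped Cd55 (1055 ± 4.80 per kilobase), Anxa3 stood at 872 ± 24.4 per kilobase and Dpp4 was last at 333 ± 1.55. In injured FAPs, Icam1 led at 1852 ± 146 per kilobase (SD, n = 3), followed by Anxa3 at 1587 ± 54.9 and F3 at 1475 ± 48.1. Pi16 had dropped to the fourth place at 763 ± 59.7 per kilobase, above Clec11a at 437 ± 36.4, Cd55 at 286 ± 29.8 and Dpp4 at 157 ± 23.0. At these transcript lengths, no 2 neighbours in this order overlapped in the injured FAP libraries.

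**Figure D2:**
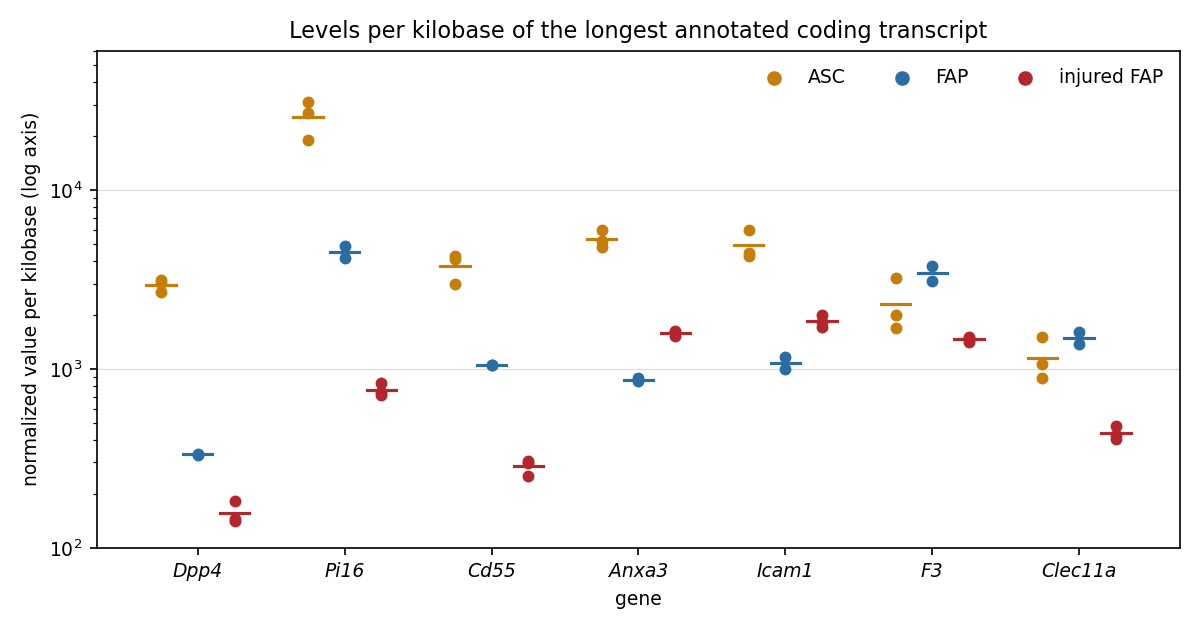
Normalized value per kilobase of coding transcript (log axis) for the 7 genes in ASCs, FAPs and injured FAPs, with 1 point per library and a line at the group mean. Pi16 leads in ASCs and FAPs and falls behind Icam1, Anxa3 and F3 in injured FAPs.

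The first comparison set non-injured cells of fat against those of muscle. Compared with FAPs, ASCs carried more Dpp4, Pi16, Cd55 and Anxa3, the interstitial progenitor genes among the 7, and more Icam1. Dpp4 was 8.82-fold higher (log2 fold change 3.14, SE 0.13, adjusted p = 7.02e-08) and Anxa3 was 6.07-fold higher (2.60, SE 0.11, adjusted p = 7.79e-08). Pi16 was 5.61-fold higher (adjusted p = 2.45e-06), Icam1 was 4.50-fold higher (adjusted p = 1.33e-06) and Cd55 was 3.54-fold higher (adjusted p = 5.75e-06). With quantile normalization the log2 fold change was 1.60 in place of 2.49 for Pi16 and 1.59 in place of 2.17 for Icam1. F3 was lower by a log2 fold change of −0.63 (95% interval −1.12 to −0.14, adjusted p = 0.03011), a difference that lost its call in several of the other settings. Clec11a differed by −0.40 on the log2 scale (95% interval −0.83 to 0.02, adjusted p = 0.08863) and did not pass the test, though it did under 3 other scalings. Tests were run with limma on log2(value + 1) over 13601 genes with Benjamini-Hochberg adjustment, and a gene was called at an adjusted p under 0.05 with a log2 fold change beyond 0.58. Of the 7 genes 5 were called higher and 1 lower, where 23.4% of all tested genes were called higher and 23.8% lower.

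The longer list of interstitial progenitor genes moved with Dpp4 in this comparison. Of 24 genes 20 were higher in ASCs, where 23.4% of all genes were, 1 was lower, where 23.8% were, and 3 did not pass. The median log2 fold change was 1.76 against 0.005 for all genes. Has1, which makes hyaluronan, was higher by 4.54, Wnt2 by 3.72 and Bmp7 by 3.62 on the log2 scale. Tppp3 was the gene that went the other way, at −0.91 (adjusted p = 0.00181). Without the 4 members, 16 of 20 were higher. Of 12 pan-fibroblast genes 7 were also higher in ASCs and 2 lower (median 0.73). Of 9 parenchymal fibroblast genes 0 were higher and 4 lower (median −0.17).

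Among 15 committed preadipocyte genes 5 were higher in ASCs, Icam1 included, 2 were lower and 8 did not pass, with a median of 0.54 against 0.005 for all genes, of which 23.4% were called higher. Pparg, the master regulator of adipogenesis, was higher by 1.22 on the log2 scale and Lpl by 0.90, while Dlk1, a preadipocyte gene that inhibits differentiation, was lower at −2.61. Without the first FAP library 8 of the 15 were higher, and the count of lower genes was 1 or 2 with any 1 library left out. Cd36, a fatty acid transporter on this list, stood at 1080.2 in that library and was listed at 0 in the second. Regulatory preadipocyte genes (12 listed) were higher for 1, lower for 5 (23.8% of all genes were) and not passing for 6, with a median of −0.47, and Mgp (−3.02) and Meox2 (−3.37) were lowest in ASCs. With any 1 library left out 1 or 2 of the 12 were higher and 4 to 7 lower, and with quantile normalization or a common total 8 were lower.

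The second comparison set muscle cells 1 day after glycerol against those after NaCl. In injured FAPs, Pi16, Cd55 and Dpp4 fell, and so did both regulatory markers, F3 and Clec11a, whereas Anxa3 and Icam1 rose. Pi16 was 5.90-fold lower (log2 fold change −2.56, SE 0.19, adjusted p = 1.96e-06), Cd55 was 3.70-fold lower (−1.89, adjusted p = 3.97e-06) and Dpp4 was 2.14-fold lower (−1.09, adjusted p = 3.61e-05). Clec11a was 3.41-fold lower (adjusted p = 2.13e-05) and F3 was 2.33-fold lower (adjusted p = 7.26e-04). Anxa3 was 1.82-fold higher (log2 fold change 0.86, 95% interval 0.62 to 1.10, adjusted p = 5.92e-05) and Icam1 was 1.71-fold higher (0.78, 95% interval 0.45 to 1.10, adjusted p = 0.00103). These are limma tests of 3 libraries against 2, and each direction held in all pairs of libraries. The share of all tested genes that separate in this way was not counted. Of the 7 genes 2 were called higher, where 24.9% of all tested genes were, and 5 were called lower, where 27.7% were.

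Anxa3 and Icam1 were also high in the CD31+CD45+ library of injured muscle, at 3757 and 5491. Among marker genes of such cells, 6 of 9 tested leukocyte genes were called higher in injured FAPs than in FAPs, where 24.9% of all genes were. All 6 (Cd74, Lyz2, Itgb2, Csf1r, Adgre1 and Tyrobp) had no value above 0 in either FAP library, so this count rests on those zeros. The other 3 did not pass, with Cd68 at −0.32, Cd79a at −0.70 (named after its values were seen) and Itgam at 2.43 (limma, adjusted p = 0.09322). Itgam was above 0 in both FAP libraries (5.71 and 8.47) and stood at 16.5, 251 and 16.8 in injured FAPs. Of 11 tested endothelial genes 2 rose (Emcn by 5.87 and Cldn5 by 4.61), 6 fell and 3 did not pass, where 24.9% of all genes rose and 27.7% fell. Emcn and Cldn5, too, were at 0 in both FAP libraries. The part of other cells in the values of Anxa3 and Icam1 was not tested. Ly6a rose by 0.81 on the log2 scale in this comparison (adjusted p = 0.0038).

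Interstitial progenitor genes fell for the most part after injury. Of 24 genes 17 fell, where 27.7% of all genes did, 4 rose, where 24.9% did, and 3 did not pass, with a median log2 fold change of −1.34 against −0.05 for all genes. The falls included Dact2 (−3.49), Axin2 (−2.88), a target of Wnt signalling, and Igfbp6 (−2.47), while Has1 (2.69), Wnt2 (1.30) and Ugdh (1.25) rose beside Anxa3.

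Regulatory and parenchymal lists fell as well, and the committed list went both ways, where 27.7% of all genes fell and 24.9% rose. Some lists of other cell types fell too. Of the smooth muscle and pericyte genes 8 of 9 fell (median −1.76). So did 4 of 6 tested muscle fibre and satellite cell genes (median −1.85) and 3 of 5 Schwann cell genes (median −1.44). Of 12 regulatory preadipocyte genes 11 fell and 1 did not pass (median −1.63), with Fmo2 at −3.11, Vit at −2.79 and Gdf10 at −2.01. Of 15 committed preadipocyte genes 8 fell and 5 rose (median −0.91), and Pparg (−2.47), Lpl (−1.92) and Cebpa (−1.33) fell while Adam12 (5.15), Fabp5 (1.63) and Sdc1 (1.26) rose with Icam1. Of 9 parenchymal fibroblast genes 8 fell, Col15a1 by 2.63 on the log2 scale. Pi16 and Col15a1, markers of different fibroblast subsets, were thus both lower. Of 12 pan-fibroblast genes 7 fell and 2 rose, with Col1a1 at −1.59, and Pdgfra, the usual surface marker of FAPs (named after its values were seen), differed by 0.44 (adjusted p = 0.01716) without passing the fold threshold.

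Last, injured FAPs were set directly against ASCs, which uses the libraries of the other 2 comparisons again. All 7 genes were called lower in injured FAPs, where 25.8% of all tested genes were called lower and 25.0% higher. Pi16 was 33.1-fold lower (log2 fold change −5.05, SE 0.17, adjusted p = 1.05e-08), Dpp4 was 18.8-fold lower (−4.24, adjusted p = 3.58e-09) and Cd55 was 13.1-fold lower (−3.71, adjusted p = 2.38e-08). Anxa3 (3.34-fold), Icam1 (2.63-fold) and Clec11a (2.58-fold) were lower by less. F3 was lower by 1.51-fold (log2 fold change −0.59, 95% interval −1.03 to −0.15, adjusted p = 0.02229), just past the threshold by limma, and this call was lost under other scalings. All 24 interstitial progenitor genes were lower in injured FAPs than in ASCs (median −2.67), as were 9 of 15 committed and 9 of 12 regulatory preadipocyte genes. Fibroblast genes at large shared this direction. Of 12 pan-fibroblast genes 9 were lower and 2 higher (median −1.97), and of 9 parenchymal fibroblast genes 6 were lower and 0 higher (median −1.02). Mgp (1.40), Meox2 (1.998) and Bgn (1.08) were the regulatory genes that were higher in injured FAPs. The 4 committed genes that were higher were Adam12 (2.16), Sdc1 (1.87), Fabp5 (1.86) and Dlk1 (1.69).

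**Figure D3:**
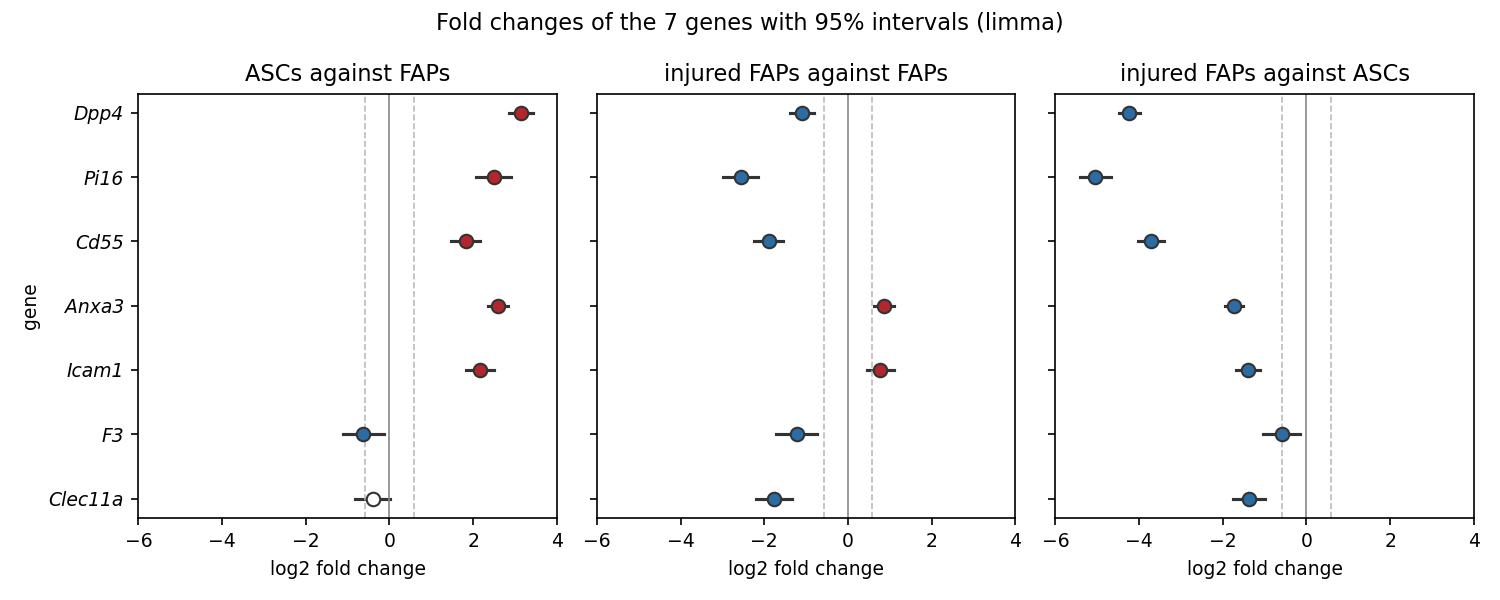
Log2 fold change on the log2(value + 1) scale with its 95% interval (limma) for the 7 genes in 3 comparisons, with genes called higher in red, called lower in blue and not called in white, and dashed lines at the fold threshold. The FAP libraries serve the first and second panel, and Anxa3 and Icam1 alone lie right of 0 in the second.

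The deposited scaling sets the median gene near 0 in all 3 comparisons. Scaled to a common total instead, a setting chosen after seeing the data, the median of all genes moved to −0.56 in ASCs against FAPs and to 0.71 in injured FAPs against ASCs, and 20.1% and 81.3% of the calls were then higher, against 49.6% and 49.3%. A common total moves each gene of a library by one factor, so distances from the median gene stay nearly the same by construction, while the fold changes themselves move. Pi16 and Dpp4 in injured FAPs against ASCs were then at −4.35 and −3.54, and F3 was at 0.11 in place of −0.59. Anxa3, Icam1 and Clec11a came to −1.04, −0.69 and −0.67, the last 2 near the threshold of 0.58. Quantile normalization moves genes unequally. Under it, Pi16 lay 1.61 above the median gene in ASCs against FAPs (2.48 as deposited), Icam1 lay 1.60 above it (2.16 as deposited), and in injured FAPs against ASCs Icam1 lay at −0.93 from it (−1.41 as deposited). In injured FAPs against FAPs the median was −0.05 as deposited and 0.08 with a common total.

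Setting the subsets against each other within a library needs no scaling between libraries. The difference between the mean log2(value + 1) of Dpp4, Pi16 and Cd55 and that of Icam1, F3 and Clec11a was 1.90, 2.07 and 2.45 in ASCs, −0.04 and 0.12 in FAPs and −1.01, −1.10 and −1.10 in injured FAPs. The group means were 2.14 ± 0.28 (SD, n = 3), 0.04 ± 0.11 (SD, n = 2) and −1.07 ± 0.05 (SD, n = 3). The balance was thus highest in ASCs and lowest in injured FAPs, with no overlap between groups, and it carries no p because the genes were chosen with results known. Its zero point depends on the lengths of the transcripts, and only the differences between libraries are free of them. Per kilobase it was 1.27, 1.44 and 1.81 in ASCs, −0.68 and −0.52 in FAPs and −1.65, −1.74 and −1.74 in injured FAPs. In the CD31+CD45+ library, where both means were low, it was −0.07 before division by length.

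**Figure D4:**
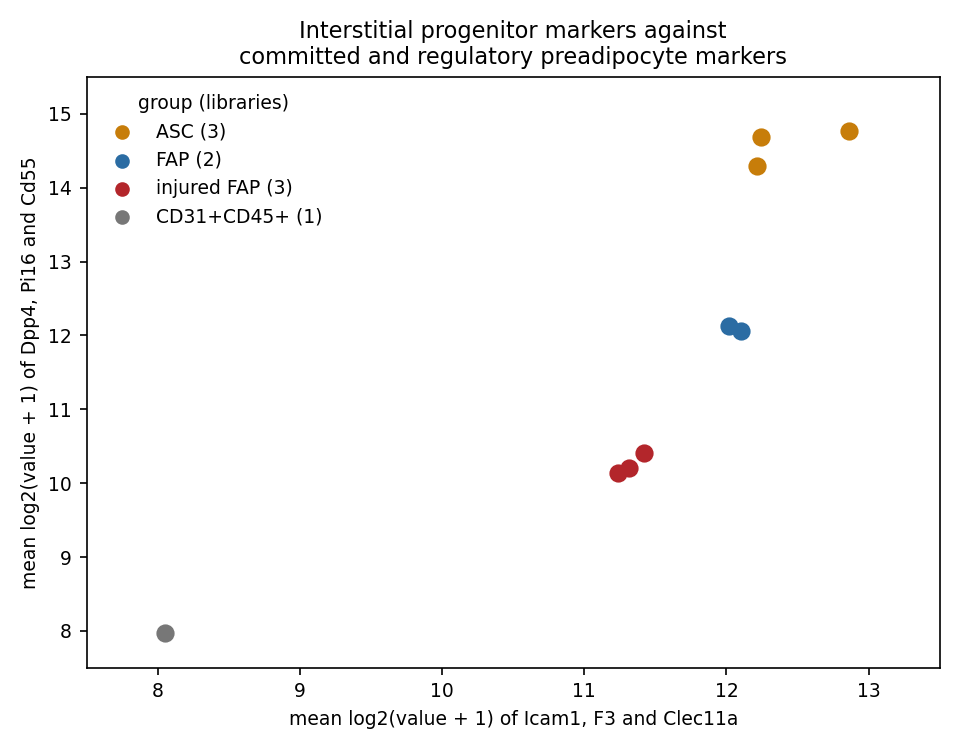
Mean log2(value + 1) of Dpp4, Pi16 and Cd55 against that of Icam1, F3 and Clec11a, not divided by transcript length, with 1 point per library. The interstitial mean descends from ASCs through FAPs to injured FAPs, and the CD31+CD45+ library is low in both.

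The balance sums over single ratios whose patterns differ from pair to pair. The ratio of Pi16 to Icam1 was 8.23, 6.96 and 9.55 in ASCs, 5.66 and 7.60 in FAPs and 0.652, 0.684 and 0.612 in injured FAPs, so ASCs and FAPs overlapped. For Dpp4 to Icam1 they did not, at 1.09, 1.29 and 1.41 against 0.594 and 0.693, with injured FAPs at 0.164 to 0.190. The ratio of Dpp4 to F3 was 2.74, 3.77 and 5.03 in ASCs, 0.247 and 0.302 in FAPs and 0.341, 0.281 and 0.275 in injured FAPs, so FAPs and injured FAPs overlapped. Dpp4 to Clec11a went against the balance after injury. It was 0.427 and 0.368 in FAPs and higher in injured FAPs, at 0.680, 0.618 and 0.604, with ASCs at 3.69, 5.34 and 5.04. Pi16 to F3 kept all groups apart, with ASCs at 20.3 to 34.0, FAPs at 2.36 and 3.31 and injured FAPs at 1.03 to 1.17. The ratio of F3 to Icam1 was 2.40 and 2.30 in FAPs, above ASCs (0.281 to 0.400) and injured FAPs (0.559 to 0.613).

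**Figure D5:**
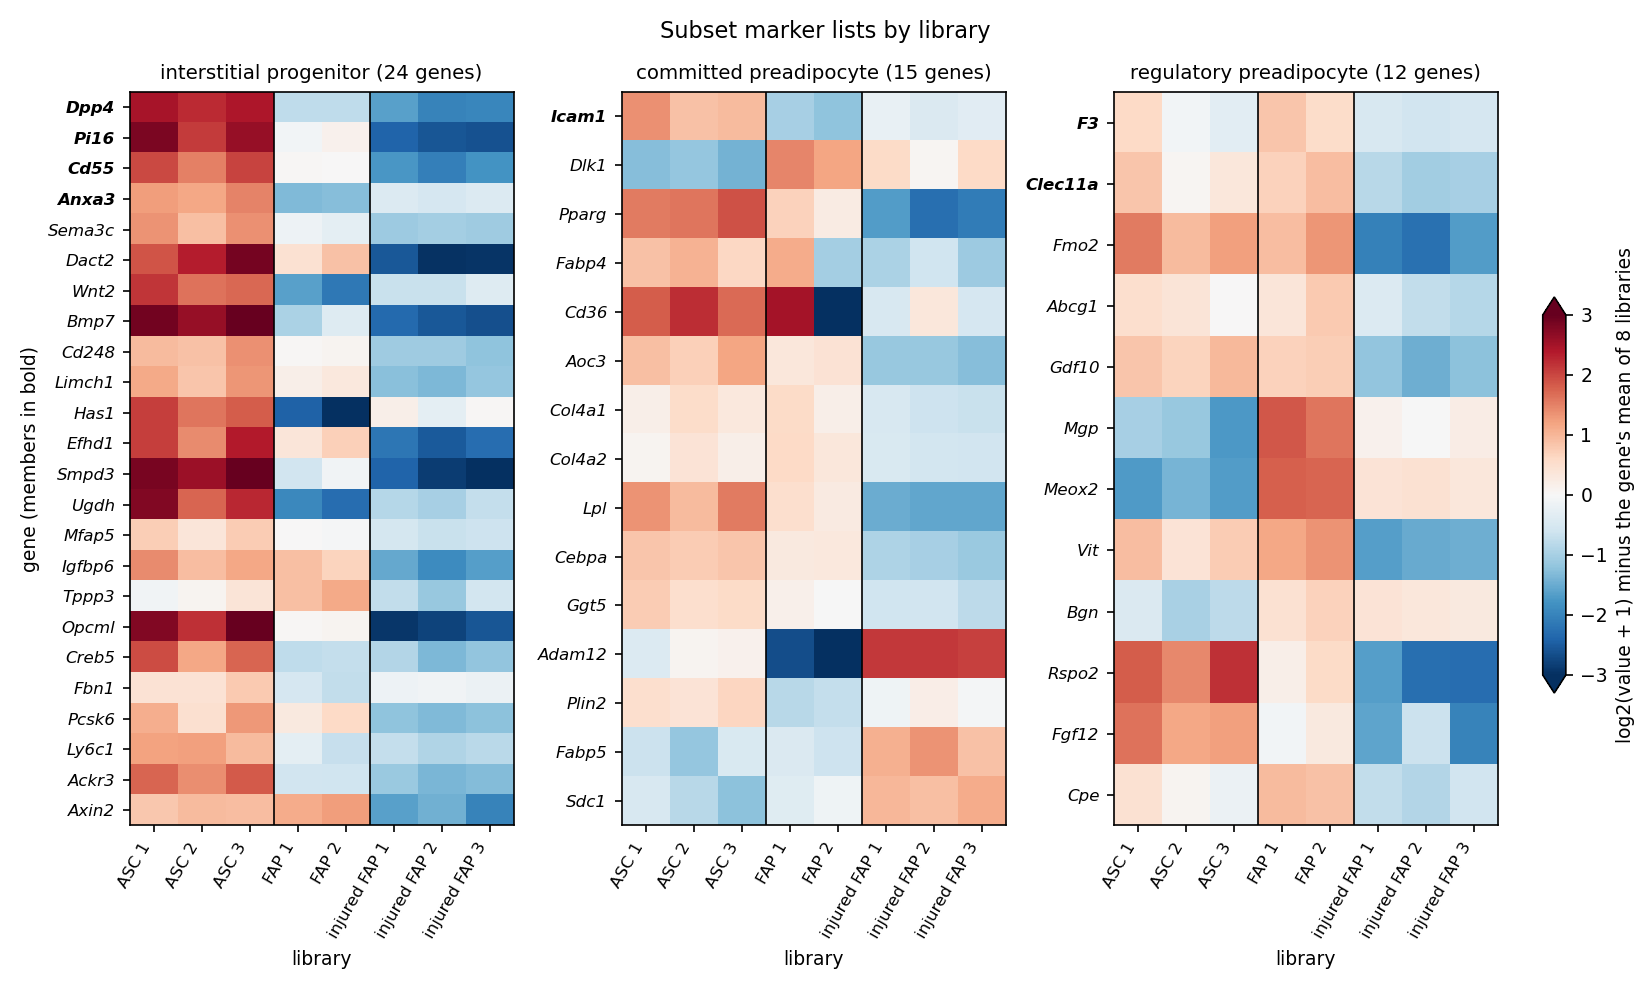
Log2(value + 1) minus the gene's mean over 8 libraries (colour, red above and blue below) for 24 interstitial progenitor, 15 committed and 12 regulatory preadipocyte genes in each ASC, FAP and injured FAP library, with members in bold. Most interstitial progenitor genes are red in ASCs and blue in injured FAPs, and Has1, Wnt2, Ugdh and Anxa3 are lowest in FAPs.

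The bases before the start of transcription are shown for the 4 members with a match to the motifs searched, of which Icam1 rose after injury and Dpp4, Cd55 and F3 fell. RefSeq promoters (build GRCm38.p6) matched 6 of the 7 members by symbol, and Anxa3 had no entry. In the 250 bases upstream of the start, both strands were searched for AP-1 (TGANTCA, held by 6.75% of 32851 promoters), NF-kB (GGGNNTTCC, 4.98%, and GGAANTTCC, 0.813%), TEAD (GGAATG, 12.6%) and the TATA box (TATAAA, 12.4%). Clec11a, which fell too, held none of these letters, and nor did Pi16, whose window lies in an annotated exon. Capitals mark the matches, read 5′ to 3′ on the strand of the gene.
Icam1 chr9:21015690-21015939, plus strand: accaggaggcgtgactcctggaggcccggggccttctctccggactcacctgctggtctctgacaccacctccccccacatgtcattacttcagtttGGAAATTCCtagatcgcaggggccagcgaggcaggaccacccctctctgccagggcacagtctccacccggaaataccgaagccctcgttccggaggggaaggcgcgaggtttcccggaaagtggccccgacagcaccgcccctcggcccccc
F3 chr3:121723287-121723536, plus strand: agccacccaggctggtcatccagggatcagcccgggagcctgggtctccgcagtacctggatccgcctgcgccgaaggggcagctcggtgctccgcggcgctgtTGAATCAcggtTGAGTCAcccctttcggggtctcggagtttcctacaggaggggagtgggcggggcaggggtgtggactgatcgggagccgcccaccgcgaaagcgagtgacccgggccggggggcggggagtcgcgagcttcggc
Dpp4 chr2:62412232-62412481, minus strand: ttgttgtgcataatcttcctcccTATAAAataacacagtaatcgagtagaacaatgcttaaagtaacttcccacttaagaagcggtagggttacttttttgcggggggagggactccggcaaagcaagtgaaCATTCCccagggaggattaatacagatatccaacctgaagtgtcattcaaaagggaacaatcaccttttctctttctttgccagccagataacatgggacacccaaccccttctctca
Cd55 chr1:130462745-130462994, minus strand: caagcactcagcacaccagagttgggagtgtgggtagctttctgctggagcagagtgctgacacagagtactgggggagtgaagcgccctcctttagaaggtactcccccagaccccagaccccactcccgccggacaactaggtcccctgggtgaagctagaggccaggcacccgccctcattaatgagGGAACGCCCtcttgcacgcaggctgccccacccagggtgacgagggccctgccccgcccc
Icam1 holds the NF-kB letters GGAAATTCC at −153 to −145 from the start. F3 holds a pair of AP-1 matches, TGAATCA at −146 to −140 and TGAGTCA at −135 to −129. Dpp4 holds TATAAA far from the start, at −227 to −222, and the TEAD letters on the other strand at −118 to −113. Cd55 holds the GGGNNTTCC form of NF-kB on the other strand, at −60 to −52. These matches are descriptions of the letters, and binding was not measured.

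Relatives and partners of each member show how far its pattern was shared by its family. Among peptidases related to Dpp4, Fap, whose protein is the closest to DPP4, did not differ between ASCs and FAPs beyond the threshold (0.05, adjusted p = 0.66602) and fell after injury (−0.82, adjusted p = 4.18e-05). Dpp6, which lacks peptidase activity, was lower in ASCs (−4.70). Of 7 tested relatives, Dpp4 left out, 1 was higher and 1 lower in ASCs, and 1 rose and 3 fell after injury, where 23.4% and 23.8%, then 24.9% and 27.7%, of all genes did. Among 4 tested CAP family relatives of Pi16, Pi15 was higher in ASCs (1.41) and Crispld2 lower (−1.53), and after injury Crispld1 (−1.51) and Crispld2 (−1.98) fell while Glipr2 rose (1.14).

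Cd55 belongs to the membrane and fluid regulators of complement. Of 8 other tested genes of regulators and C4, 2 were higher and 4 lower in ASCs than in FAPs, where 23.4% and 23.8% of all genes were, and 7 fell after injury, where 27.7% of all genes did. Serping1, the C1 inhibitor, was higher in ASCs (1.12) and fell after injury (−1.82), and Clu fell too (−2.53). C4b, a complement component, was at 82000, 54559 and 67050 in ASCs, 5084 and 4352 in FAPs and 2200.1, 1868 and 1705 in injured FAPs, which is the order of Dpp4.

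Of 9 tested annexins other than Anxa3, Anxa1 was higher in ASCs, Anxa8 was lower and 7 did not pass. Anxa1, known for limiting inflammation, was higher by 2.24 in ASCs and by 0.62 after injury, the 2 directions of Anxa3. After injury 1 of the 9 rose and 4 fell, where 24.9% and 27.7% of all genes did. Of 7 tested adhesion molecules that bind leukocytes, Icam1 left out, 4 were higher in ASCs, where 23.4% of all genes were, and 4 rose after injury, where 24.9% did. After injury Vcam1 rose by 2.07 and Alcam by 1.26 while Jam2 (−2.19) and Icam5 (−0.97) fell. In both counts 2 of the 4 are Sele and Selp, which rest on the zeros of the FAP libraries described above. Vcam1 went from 1055 and 953 in FAPs to 4403, 4223 and 4059.9 in injured FAPs. Sele and Selp were listed at 0 in both FAP libraries, and stood at 178 to 220 and at 129.7 to 196 in injured FAPs, where the CD31+CD45+ library had 2544 and 9514.

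Of 13 genes listed for the tissue factor pathway 8 were tested. After injury 5 of these rose, where 24.9% of all genes did, 2 did not pass and 1, F3 itself, was called lower. Tfpi, the inhibitor of tissue factor, rose by 1.15, Tfpi2 by 1.30, Thbd by 0.78 and F2rl1, a protease-activated receptor, by 1.82 on the log2 scale. Of the 7 without F3, 5 were higher and 2 lower in ASCs than in FAPs, where 23.4% and 23.8% of all genes were, with Procr (3.90) and Tfpi2 (3.70) higher and F2r (−2.79) and F2rl1 (−3.74) lower. Of 6 tested receptor and bone genes around Clec11a, 4 were lower in ASCs than in FAPs and 2 did not pass. After injury 3 rose, 2 fell and 1, Alpl (−0.55), did not pass, where 24.9% of all genes rose and 27.7% fell. The receptor subunits Itga11 (−1.71) and Itga10 (−1.93) fell and Itgb1 rose (0.62). Spp1, which encodes osteopontin, rose by 4.36 and Runx2, a regulator of bone formation, by 2.11.

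Among genes with a mean of at least 100 (10592 genes), those most like each member over the 8 libraries were found by Pearson's r of log2(value + 1). These libraries form 3 separate groups, so r measures the likeness of group patterns and is given with no p. Mmp14 (r = 0.999) was the most like Dpp4, Qpct (r over 0.999) the most like both Pi16 and Cd55, and Mmp23 the next for Pi16. Slc4a4 (r = 0.997) and Cxcl9 (0.997) were the most like Anxa3, and Slc3a2 (0.998) and Cebpb (0.998) the most like Icam1. F3 had weaker matches, led by Unc119b (0.974), and Clec11a was most like Dnase1l1 (0.995). Between members, Pi16 and Cd55 had r = 0.998, Anxa3 and Icam1 0.981 and F3 and Clec11a 0.890, while Anxa3 and F3 had −0.20. The 7 genes thus fell into 3 pairs by pattern, with Dpp4 closest to Pi16 (0.968). Anxa3 was thus more like Icam1 than like Dpp4 (0.852), Pi16 (0.702) or Cd55 (0.703), while Has1, Wnt2 and Ugdh of its own list had its directions too.

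The annotation places exons of other genes within 5 of the 7 members. Antisense exons share 511 bases with Icam1, 232 with Dpp4, 222 with Pi16 and 102 with Cd55, and a same-strand transcript shares 112 bases with Anxa3. The strand setting of the counting is not given in the sources used here, so reads from these stretches cannot be assigned to one of the partners. They make up 2.10% to 11.7% of the exonic bases of these members.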

How the data were processed

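RNA of sorted cells was sequenced in 9 libraries, and 8 of them, in 3 groups, entered one fit. The authors filtered reads with fastq_illumina_filter, aligned them to mm10 with HISAT2 and used featureCounts (Subread) for the gene counts, and the deposited signal values are reads per gene divided by a size factor for the library. Here log2(value + 1) of genes with a mean of at least 10 was tested with limma 3.58.1 in R 4.3.3 (trend, 5 residual degrees of freedom, Benjamini-Hochberg). The log scale with 1 added understates fold changes of genes with low values. Reads recovered from the values served edgeR 4.0.16 and DESeq2 1.42.0 as alternatives. Other alternatives were a pseudocount of 0.5 or 8, no filter, a mean of at least 50, quantile normalization, a common 75th percentile, only the compared groups, a replicate block and leaving out each replicate. A common total, and the counts of the lists under each alternative, were added after seeing the data. Recovered reads per library were 13091077 to 27481573.

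The genes named are the 7 members, the genes of the subset lists and of the lists of relatives, the most abundant genes and those at 0 of the other lists, and the 3 genes most like each member. Cd55b is named as the paralogue adjacent to Cd55. Any other gene is marked as chosen after its values were seen. The members and the lists were chosen with earlier results of these data known. The CD31+CD45+ library was left out of the tests because it has no replicate. Genes at 0 in every library (6684) were not tested. Some genes of the lists of relatives are counted but not reported here by name.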

Additional observations from a re-analysis of the deposited data

Results flagged for a closer look

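Anxa3 (3757) and Icam1 (5491) in the CD31+CD45+ library were flagged because this library enters no comparison and its values lie above those of both FAP libraries (1364 and 1419 for Anxa3, 2948 and 2541 for Icam1). The library comes from glycerol-injected muscle and has no replicate, so no spread can be given and the difference was not tested.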

How the results depend on the processing

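Of 399 values of the 7 genes under 19 alternatives (21 results each), 381 kept their direction and their side of the threshold, 13 lost the threshold, 4 passed it newly and 1 changed sign. Dpp4, Pi16, Cd55, Anxa3 and Icam1 kept both in all 3 comparisons under all 19, and so did F3 and Clec11a in injured FAPs against FAPs. Clec11a also did so in injured FAPs against ASCs. Sizes moved all the same. Pi16 in ASCs against FAPs went from 2.49 to 1.60 on the log2 scale with quantile normalization, and with a common total Pi16 and Dpp4 in injured FAPs against ASCs went from −5.05 to −4.35 and from −4.24 to −3.54.

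F3 in ASCs against FAPs (−0.63) lost its call with only the compared groups in the fit (−0.63), with DESeq2 (−0.57), in the fit with a replicate block (−0.54) and in 4 of the 8 fits that leave out 1 library (leave-one-out values from −0.90 to −0.44). F3 in injured FAPs against ASCs (−0.59) lost its call with quantile normalization (−0.30), a common 75th percentile (−0.48) and edgeR (−0.56), and changed sign with a common total (0.11, adjusted p = 0.5838), and it lost its call in 3 of the 8 leave-one-out fits (values from −0.78 to −0.32). Clec11a in ASCs against FAPs (−0.40) was called with quantile normalization (−0.89), a common 75th percentile (−0.61) and a common total (−0.97) and without ASC replicate 1 (−0.62, with leave-one-out values from −0.62 to −0.23). The balance of injured FAPs (−1.07) was −1.13 with quantile normalization. For all of these the cause was not tested. Where a FAP library is left out, the lone FAP library is assumed to vary like the other groups.

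Genes called ran from 5653 to 6683 (ASCs against FAPs), 6323 to 7358 (injured FAPs against FAPs) and 6582 to 7190 (injured FAPs against ASCs) when 1 library was left out. Of 456 list counts 436 stayed within 1.5 times the main count. Deviations of same-numbered libraries of different groups from their group means had r from −0.05 to 0.04. With 2 FAP libraries and 3 in the other groups, small differences such as those of F3 and Clec11a between ASCs and FAPs are bounded only by their intervals. Depth limits none of the members, each of which had values far above 3 reads.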

Other observations

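In the single CD31+CD45+ library the 7 genes stood at 62.8 (Dpp4), 329.6 (Pi16), 756 (Cd55), 3757 (Anxa3), 5491 (Icam1), 42.4 (F3) and 76.9 (Clec11a).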
